A study of Mus musculus with 7 samples.

Results

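In a culture of newborn mouse hippocampus sampled after 1 day in vitro (DIV1), 304 of 4096 cells (7.42%, exact binomial 95% interval 6.64% to 8.27%) carried RNA of both Hes5 and Slc1a3 and none or little of chosen marker RNAs of neurons, intermediate progenitors, oligodendrocyte precursors and cells in G2 and mitosis. They are called Hes5+ Slc1a3+ cells here. They were selected on measured values of the DIV1 library, counts of UMIs (unique molecular identifiers, each standing for 1 captured RNA molecule): at least 1 UMI of Hes5, at least 1 of Slc1a3, at most 1 of Stmn2, 0 of Eomes, at most 1 of Gad1 and Gad2 together, under 5 of Top2a, Mki67, Cenpf and Ube2c together, and 0 of Sox10. A barcode entered with 500 or more genes detected and no more than 10% of its UMIs mitochondrial, which kept 26709 cells over the 7 libraries of the series. All libraries come from hippocampi of P0 mice, dissociated with trypsin and plated on poly-D-lysine in medium with serum and B-27. There is 1 library of DIV1 and 2 of each later day, DIV3, DIV5 and DIV7. Strain, sex, number of animals and genotype are not given in the labels used here, and no treatment or allele is named for any group. Whether the 2 replicates of a day were grown as separate cultures is not said either, so p-values reflect spread among libraries that may be technical.

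Hes5 is a transcriptional repressor switched on by Notch receptors: a ligand on a neighbouring cell triggers cleavage of Notch, its freed intracellular part joins the DNA-binding protein RBPJ, and Hes genes are transcribed. Hes proteins repress proneural genes and so keep radial glia and neural stem cells undifferentiated. Slc1a3 encodes the glutamate transporter GLAST of radial glia and astrocytes. Around birth the hippocampus holds radial glia that still give rise to granule neurons, and others that turn into astrocytes, and both kinds express these 2 genes.

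The promoter of Hes5 is shown because this gene defines the cells and is the readout of Notch signalling, and those of Mt1 and Mt2 because these 2 metallothionein genes, which encode small metal-binding proteins, rose together between DIV1 and DIV3 in the cells described. Each runs from 250 bases before to 50 bases after the start site, 5′ to 3′ on the plus strand (RefSeq, GRCm38.p6): chr4:154960673-154960972 for Hes5, chr8:94178839-94179138 for Mt1 and chr8:94172368-94172667 for Mt2. Capitals mark the RBPJ core TGGGAA in Hes5 and the metal response element core, TGCACNC or TGCGCNC, in the metallothionein genes, each on either strand.
Hes5: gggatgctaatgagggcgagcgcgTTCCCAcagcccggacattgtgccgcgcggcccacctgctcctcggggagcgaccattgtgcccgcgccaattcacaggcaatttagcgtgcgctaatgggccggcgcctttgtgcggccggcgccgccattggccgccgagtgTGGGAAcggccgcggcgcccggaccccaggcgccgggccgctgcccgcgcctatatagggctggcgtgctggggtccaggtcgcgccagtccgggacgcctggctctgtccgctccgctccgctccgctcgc
Mt1: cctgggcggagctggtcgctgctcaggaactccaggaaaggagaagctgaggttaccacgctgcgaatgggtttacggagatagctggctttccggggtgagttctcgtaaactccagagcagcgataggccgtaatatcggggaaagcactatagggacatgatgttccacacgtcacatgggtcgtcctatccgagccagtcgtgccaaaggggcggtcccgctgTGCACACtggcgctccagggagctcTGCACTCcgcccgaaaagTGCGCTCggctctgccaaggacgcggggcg
Mt2: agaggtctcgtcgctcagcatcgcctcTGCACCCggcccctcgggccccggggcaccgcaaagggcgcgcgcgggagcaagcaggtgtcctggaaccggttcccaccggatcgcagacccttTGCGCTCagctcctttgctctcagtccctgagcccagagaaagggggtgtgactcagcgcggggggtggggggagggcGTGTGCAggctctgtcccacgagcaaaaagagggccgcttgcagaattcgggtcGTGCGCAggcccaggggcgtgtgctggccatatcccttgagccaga
Hes5 has 2 RBPJ cores, which begin 226 and 82 bases before the start site. At least 1 such core is found in 25.6% of 32851 promoters of the same length, and 2 or more in 3.79%. Mt1 has 3 metal response cores, which begin 23 bases before and 2 and 20 bases after the start site. Mt2 has 4, which begin 223, 128 and 50 bases before and 4 bases after it. Of all promoters 25.7% hold at least 1, 7.11% hold 2 or more and 0.517% hold 4 or more. The share with 3 or more, the number in Mt1, was not counted. A match of these letters is a description of the sequence and no measure of binding.

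The Hes5+ Slc1a3+ cells were sequenced somewhat deeper than the other cells of their library, with a median of 9553.5 UMIs and 2971.5 genes against 6790.5 UMIs and 2477.5 genes in the remaining 3792 cells. Of their members 107 had 1 UMI of Hes5, the lowest count the selection takes in, and 40 had 8 or more. The 741 cells that failed through Hes5 alone had none, and are called Slc1a3+ cells without Hes5. A further 88 cells failed only by 5 or more UMIs of the 4 mitotic genes and are called dividing cells, while 7 members held 4 such UMIs and 233 held 0. A single Stmn2 UMI was present in 38 members. Markers of other cell types were rare but concentrated: 2 members held 251 of the 260 microglial UMIs, 3 held 160 of 183 endothelial UMIs and 10 held 379 of 454 UMIs of ciliated cell genes. With 1 cell past the fibroblast limit and 11 with Pdgfra, 27 of 304 members carried such RNA, and each count that opens a comparison was also made without them. This definition of mixed cells was chosen after the data were seen.

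Against the remaining DIV1 cells, the Hes5+ Slc1a3+ cells held more RNA of radial glial and astrocytic genes and far less RNA of neuronal genes. Of 6838 genes with at least 20 CPM (each gene's UMIs scaled by all UMIs summed in a population) in either population, 173 (2.53%) were at least 2-fold higher and 766 (11.2%) at least 2-fold lower, 13.7% in all, with 10 CPM added to both. Without the 27 mixed cells 1001 genes passed the same fold. The selection itself separates the 2 populations and there is 1 library, so these values are a description with no test, and the intervals cover counting error only.

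Aldoc, a glycolytic enzyme of astrocytes and their progenitors, stood highest, with 203 CPM (95% Poisson interval 188 to 220) against 33.2 CPM, 4.94-fold. Fabp7, the brain lipid-binding protein of radial glia, had 2532 against 591 CPM (4.23-fold) and was found in 94.4% of the cells. Gfap, the intermediate filament of astrocytes and postnatal radial glia, had 1041 against 239 CPM (4.22-fold). Gfap was found in 91.4% of the cells, so most members carried both RNAs. Id3, an inhibitor of proneural transcription factors and a target of BMP signals, had 2243 against 597 CPM and was detected in 99.3% of the cells. The astrocytic water channel Aqp4, in contrast, was seen in 27.6% of them, at 86.3 against 17.2 CPM. Hopx, a marker of quiescent neural stem cells, had 75.1 against 16.4 CPM (3.22-fold). Others among the genes with the largest ratios were Tst, Hspb8, Mt3, Nacc2, Hepacam, Slc9a3r1, Npas3 and Cav1, at 3.00 to 3.54-fold. Cav1, the main protein of caveolae, was at 610.5 CPM in Slc1a3+ cells without Hes5 and at 594 CPM in Hes5+ Slc1a3+ cells.

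The 10 genes with the lowest ratios were neuronal. Tubb3, a neuronal tubulin, had 22.5 CPM against 819 CPM in the remaining cells, and the synaptic vesicle protein gene Syt4 had 3.64 against 297. The microtubule regulators Stmn4 and Mapt stood at 17.2 against 544 and 27.1 against 727 CPM. The granule and pyramidal neuron factors Neurod2 (0.992 against 202 CPM), Neurod1 (5.62 against 287) and Neurod6 (4.63 against 214) were lower too, with Dcx, Sst and Islr2. When the same selection was applied to the 6 later libraries, all 25 genes with the 15 highest and 10 lowest ratios lay in the same direction in every one of them, Aldoc at 2-fold or more in each. The same limits on Hes5, Slc1a3 and marker RNA hold there, so neither the glial nor the neuronal direction is independent of the selection. The recurrence is a description and no test. For Sst in DIV3 replicate 1 the direction rests on 0 against 0.165 CPM.

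**Figure D1:**
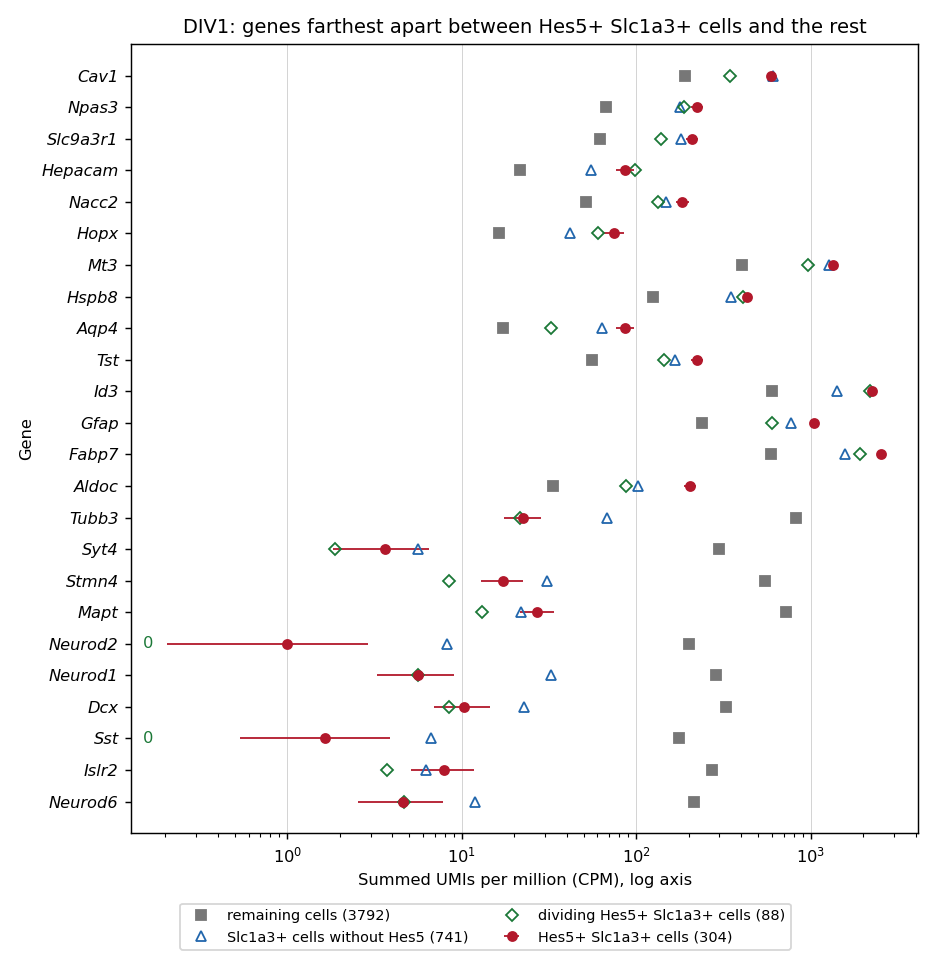
The x axis gives CPM on a log scale for 14 of the 15 genes with the highest ratio and the 10 with the lowest, in the Hes5+ Slc1a3+ cells (red, bars are 95% Poisson intervals), the remaining cells (grey), Slc1a3+ cells without Hes5 (blue) and dividing cells (green); 0 marks genes without UMIs in dividing cells. For Aldoc the red point at 203 CPM lies right of the blue one at 102 CPM, while for Cav1 red and blue nearly coincide at 594 and 610.5 CPM.

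Among the genes of the Notch pathway, Notch1, Lfng and the targets Hes1 and Hey1 were higher and ligands were scarce. Of the ligand genes only Dner and Dlk1 reached 20 CPM. Dner, a non-canonical ligand of neurons, had 13.6 CPM in the Hes5+ Slc1a3+ cells against 77.5 CPM in the rest, and Dlk1, which lacks the part that activates Notch, had 127 against 71.8. The classical ligand Jag1 had 17.5 against 18.9 CPM, and Dll1, Dll3 and Dll4 had 1.98, 0.331 and 2.65 CPM. Notch1 was 2-fold or more higher, at 147.5 against 51.8 CPM, and Notch2 had 70.8 against 32.2. Of 11 measured genes that process or modify Notch, 1 passed 2-fold: Lfng, a glycosyltransferase that tunes which ligands the receptor answers to, at 80.4 against 21.8 CPM. The nuclear partners did not differ to that extent, with 31.4 against 37.7 CPM for Rbpj. Of the targets other than Hes5, both measured ones were higher: Hes1 had 131 against 41.7 CPM and Hey1 had 120 against 38.7. In Slc1a3+ cells without Hes5, Hes1 stood at 106 and Hey1 at 85.3 CPM, between those of the Hes5+ Slc1a3+ cells and the rest.

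The list of radial glia and stem cell genes, read against the 2.53% and 11.2% above, had 17 of 29 measured members higher and 2 lower, with a median log2 ratio of 1.24 against −0.06 over all genes. Mfge8 (154 against 45.5 CPM), Sox2 (153 against 58.4), a transcription factor of neural stem cells, and Pax6 (131 against 44.9), which patterns the dorsal telencephalon, were among the higher ones. Nfib (524 against 1252 CPM) and Nfix (419 against 1336), which promote gliogenesis and neuronal maturation, were the lower ones. The list of astrocyte genes had 15 of 23 higher and 1 lower, with a median of 1.27. The single lower member was the GABA transporter gene Slc6a11 with 4.30 against 21.6 CPM. Other members did not differ to that extent: Slc1a2, the main glutamate transporter of mature astrocytes, had 83.7 against 92.5 CPM, and S100b, too low to count as measured, had 2.65 against 5.29. Per cell, the astrocyte list summed to a median of 89.9 UMIs per 10000, with 34.6 and 166 at the 10th and 90th percentile, and to 12.2 in the remaining cells.

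Of the Id and BMP genes 4 of 11 were higher. Id1 had 877 against 290 CPM, Id4 had 89.0 against 35.4 and Nog, a secreted BMP antagonist, had 57.9 against 15.8, whereas Id2 had 725 against 1004. Of 17 proneural and neuroblast genes 10 were lower and 1 was higher. After every cell was thinned to 3000 UMIs, Olig1, a factor of the oligodendrocyte lineage and of progenitors, was found in 16.6% of the Hes5+ Slc1a3+ cells and 4.31% of the remaining cells, against 2.86% of 70 microglia, which should lack it (median depth 9559 UMIs in the first and 12135 in microglia). Unthinned, it was found in 30.3%, 7.62% and 4.17%. Olig2 was in 2.99% of the Hes5+ Slc1a3+ cells after thinning.

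Genes for matrix and secreted growth factors had 7 of 20 members higher, among them pleiotrophin (Ptn, 1200 against 416 CPM), the proteoglycan neurocan (Ncan, 981 against 339) and the receptor phosphatase gene Ptprz1 (422 against 160). Ccnd2, the D-type cyclin of neural progenitors, had 1528 against 536 CPM and was the only member of 10 cyclin and inhibitor genes past 2-fold. No member of 17 DNA replication genes passed it, and their sum was 1046 CPM against 744 in the remaining cells and 2628 in the dividing cells. Among growth factor receptors Fgfr3 was higher, at 78.7 against 26.9 CPM, and Ntrk3 lower. Etv4, a transcription factor induced by FGF signalling, had 61.8 against 20.1 CPM and was the only one of 13 ERK feedback genes past 2-fold. Of the dorsal and hippocampal factors, Pax6 was higher, Zbtb20 (993 against 2577 CPM) and Prox1 (26.8 against 75.5) lower, and Lhx2, the selector of cortical fate, had 169 against 164 CPM. The ventral factor Gsx2 had 0 UMIs in 304 cells, which allows a share of cells with a UMI of up to 0.987%.

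The Slc1a3+ cells without Hes5 had a radial glia total of 10367 CPM against 11645 CPM in the Hes5+ Slc1a3+ cells, and an astrocyte total of 9434 against 9812 CPM. They held more fibroblast RNA, at 533 against 198 CPM, and more choroid plexus RNA, at 239 against 7.28 CPM. Since a cell with 0 UMIs of Hes5 can still express it, the border between the 2 populations depends on depth. Radial glia and astrocyte genes were both present in the Hes5+ Slc1a3+ cells and cells in mitosis were removed by the selection, so how many of them act as progenitors was not measured.

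**Figure D2:**
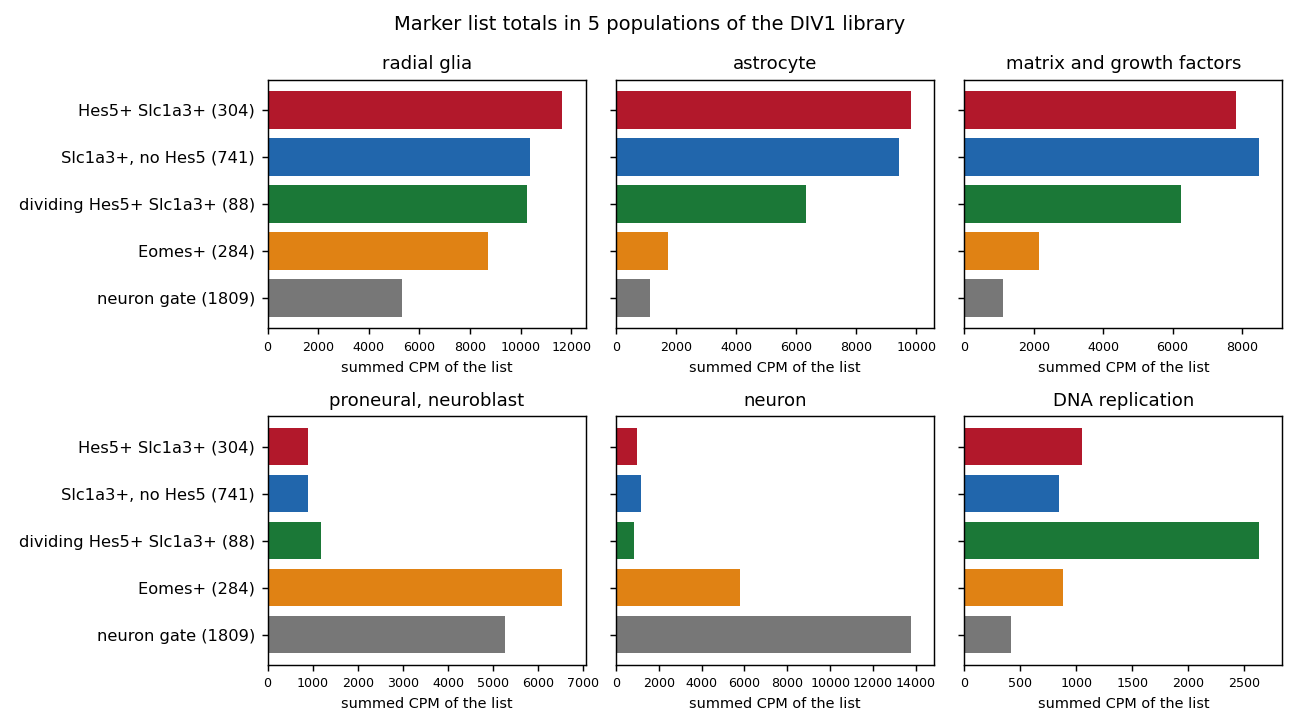
Each panel shows 1 marker list, with bars from 0 giving the summed CPM of its genes in 5 populations of the DIV1 library, their cell numbers in brackets. The radial glia and astrocyte totals are 11645 and 9812 CPM in the Hes5+ Slc1a3+ cells, and the replication total is 2628 CPM in dividing cells against 1046 CPM.

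Vgf and Tesc were named as markers of these cells with earlier results of the same data known. Vgf encodes a secreted granule protein that is cleaved into neuropeptides. It had 62.2 CPM (53.6 to 71.7) in the Hes5+ Slc1a3+ cells against 93.0 CPM in the remaining cells and 119 CPM in Slc1a3+ cells without Hes5, so it did not stand above the rest of the library. It was detected in 22.0% of 304 cells and in 19.4% of 72 microglia, and after thinning in 10.6% (7.39% to 14.7%) and 5.71% (1.58% to 14.0%), intervals that overlap. A single cell held 13.8% of its 188 UMIs. Tesc, which encodes tescalcin, a calcium-binding regulator of the sodium-proton exchanger, had 143 CPM (129 to 157) against 50.8 CPM in the remaining cells, 2.51-fold. It was higher still in dividing cells, at 309 CPM, and in Eomes+ cells, at 212 CPM, and low in Slc1a3+ cells without Hes5, at 34.2 CPM. After thinning Tesc was found in 20.3% of the Hes5+ Slc1a3+ cells, 7.83% of the remaining cells and 1.43% of microglia, and before thinning in 28.0%, 12.9% and 9.72%. Each marker was found in a minority of cells: of 301 thinned cells 32 held Vgf, 61 held Tesc and 3 held both. Vgf was in 4.92% of the cells with Tesc and 12.1% of those without. These counts are small, and whether the 2 markers avoid each other was not tested. In the 6 later libraries Tesc lay on the same side of the rest in 2, and Vgf in 6.

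Within the selection, levels were also set out by the number of Hes5 UMIs, itself a count the selection uses. In the 107 cells with 1 Hes5 UMI, the 85 with 2 or 3 and the 112 with 4 or more, Hopx stood at 59.3, 60.0 and 101 CPM and Fabp7 at 2333, 2404 and 2811. Aqp4 ran the other way, at 107, 87.8 and 66.4 CPM. Tesc had 120, 83.1 and 209 CPM, so its highest value lay with the most Hes5 but the order was not even. Gfap (1112, 801 and 1161 CPM) and Aldoc (179, 140 and 275 CPM) were likewise lowest in the middle stratum. The strata have median depths of 9465, 9661 and 9407.5 UMIs.

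The 85 cells with Tesc and the 219 without it differed in more than Tesc, with median depths of 8030 and 9942 UMIs. This division was made after the data were seen, and its values are a description. Of 6179 measured genes 97 were at least 2-fold higher and 118 at least 2-fold lower in the cells with Tesc, Tesc itself counted. Without the mixed cells it was 131 and 137 of 6074. Thrsp, a regulator of lipid synthesis genes, was highest, at 288 against 24.4 CPM (8.67-fold), and Gdf10, a secreted BMP relative, had 88.3 against 6.21. Factors of the dorsal neurogenic lineage were on the same side. Neurog2 had 64.9 against 5.33 CPM, Emx1 had 109 against 20.9 and Lhx9 had 48.0 against 5.77. Of 11 measured proneural and neuroblast genes 5 were higher and 0 lower, Sox11 with 343 against 163 CPM among them, and of 14 dorsal and hippocampal factors 4 were higher, including Prox1, the factor of dentate granule cells, with 66.2 against 13.3 CPM. Aldoc had 478 against 110 CPM and Hopx 145 against 51.0.

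On the other side stood Lgals3, several glial genes and genes of the contractile apparatus, all lower in the cells with Tesc. Lgals3, a carbohydrate-binding lectin of activated glia, had 26.0 CPM in cells with Tesc against 260 without. Aldh1l1, a folate enzyme and pan-astrocyte marker, had 9.09 against 79.0, Aqp4 had 20.8 against 109 and Fabp7 had 903 against 3088 CPM. Gfap did not follow them in detection. Of 301 thinned cells 61 held Tesc, and 55 of these held Gfap. Tesc was found in 23.4% of the cells with Gfap and 9.09% of those without. The actin-binding protein gene Tagln (75.3 against 384 CPM) and Acta2 (59.7 against 287) were lower in the cells with Tesc. Of 21 measured matrix genes 5 were lower and 0 higher, of 23 astrocyte genes 6 were lower and 2 higher, and of 29 radial glia genes 5 were lower and 2 higher. Markers of other cell types moved with this division. Their sums in cells with and without Tesc were 402 against 888 CPM for mural, 93.5 against 234 for fibroblast, 6.49 against 124 for microglia, 20.8 against 74.1 for endothelial and 84.4 against 177 for ciliated cell genes. Without the mixed cells they were 354 against 891, 80.7 against 180.0, 5.66 against 4.08, 12.7 against 6.12 and 29.7 against 25.5, so the mural and fibroblast sums stayed lower with Tesc and the other 3 did not. Mgp, Ccl2, Gja4 and Lpl, which are among the 30 genes with the largest ratios, rested largely on 1 cell each, which held 49.6% to 100% of their UMIs on the higher side.

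The same division in other cells gave the same side for most of these genes. Of the 15 highest genes 14 were higher with Tesc in the dividing cells, 14 in Slc1a3+ cells without Hes5, and 13 and 12 in Hes5+ Slc1a3+ cells of the 2 DIV3 libraries. Of the 15 lowest, 13, 14, 13 and 13 were lower. Thrsp, for example, had 275 against 43.4 CPM in dividing cells, and 257 against 83.1 and 154 against 56.3 CPM in the DIV3 libraries. Neurog2 had 87.0 against 3.10 CPM in dividing cells. These counts take the side only, and some differences were small or reversed in the DIV3 libraries. Aldoc had 273 against 240 and 193 against 194 CPM there, and Bcl11a had 4.79 against 8.34 and 8.46 against 11.3. Mgp, which rests on 1 cell, is among the 15 highest. The share of all genes on the same side was not counted.

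**Figure D3:**
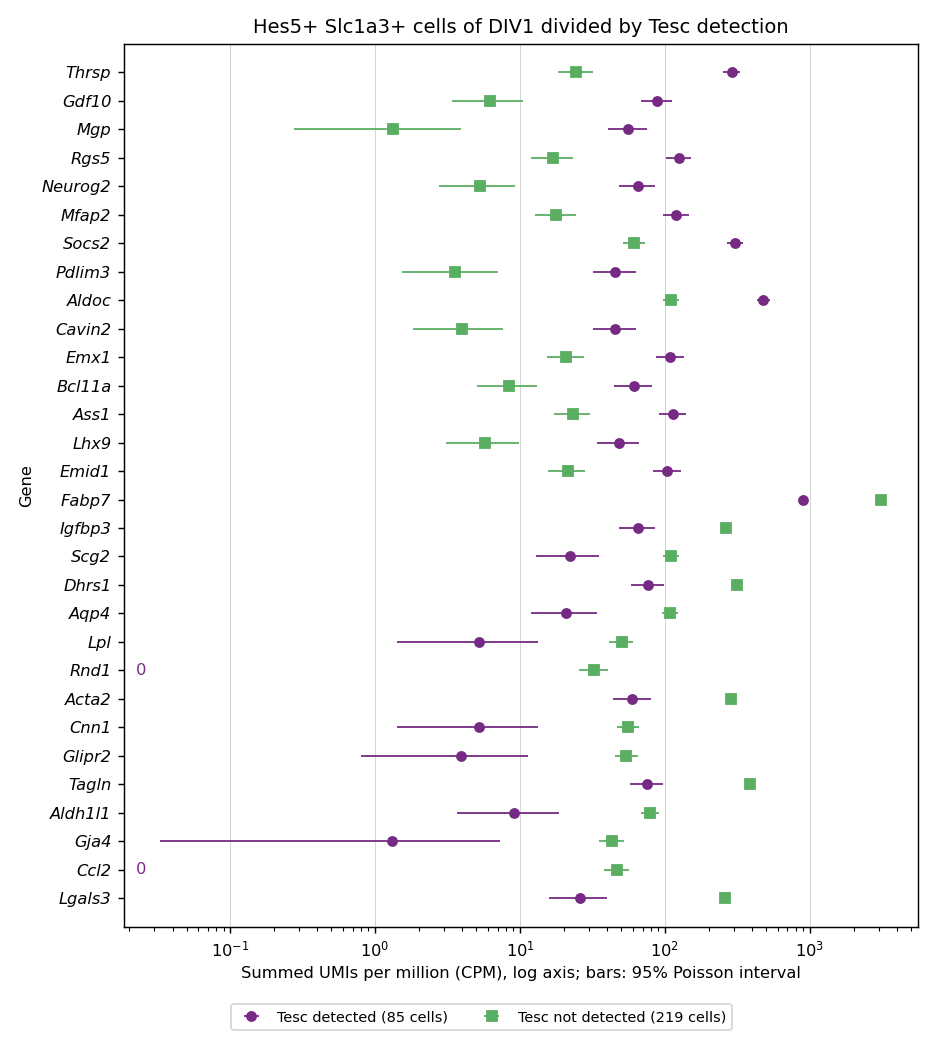
Summed CPM on a log x axis for the 15 genes with the highest (top) and the 15 with the lowest (bottom) ratio between cells with Tesc (purple circles) and without it (green squares) among the 304 Hes5+ Slc1a3+ cells; bars are 95% Poisson intervals and 0 marks no UMI. Thrsp stands at 288 against 24.4 CPM and Lgals3 at 26.0 against 260 CPM.

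The same selection found cells on each later day, at shares that differed between the 2 libraries of a day. DIV3 had 216 of 5144 (4.20%) and 198 of 2838 cells (6.98%), DIV5 had 86 of 4300 (2.00%) and 479 of 3863 (12.4%), and DIV7 had 34 of 2955 (1.15%) and 288 of 3513 (8.20%). The DIV1 share of 7.42% lies inside the range of the later ones. After thinning to 3000 UMIs DIV1 had 5.19%, with 361 shallower cells left out, and the later libraries had 1.31%, 3.05%, 0.976%, 6.99%, 0.428% and 3.47% in the same order. Members with RNA of other cell types numbered 52 of 216, 46 of 198, 39 of 86, 66 of 479, 23 of 34 and 79 of 288 in these libraries, against 27 of 304 at DIV1. Of these, 40, 38, 37, 30, 19 and 59 held 5 or more UMIs of ciliated cell genes, against 10 at DIV1.

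Counts were summed over the Hes5+ Slc1a3+ cells of each library to ask how their RNA changed with time in culture. Between DIV1 and DIV3 few genes passed: 16 of 12498 (0.128%) by the quasi-likelihood test of edgeR, Benjamini-Hochberg adjusted, 10 higher (0.0800%) and 6 lower (0.0480%), with 1418 at an unadjusted p under 0.05. Without the mixed cells it was 10, in a fit that also left out DIV7 replicate 1, where only 11 cells remained, as in every value without mixed cells between days. It was 5 without DIV3 replicate 1, 34 without DIV3 replicate 2, 72 and 62 without DIV5 replicate 1 or DIV5 replicate 2, and 8 without DIV7 replicate 1 or DIV7 replicate 2. DIV1 has 1 library, which the fit assumes to vary like the others, so day and library cannot be told apart. In such sums, fewer cells with a transcript and less of it per cell cannot be told apart either.

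The metallothionein genes gave the highest levels among the called rises. On the CPM scale of this fit, which corrects for composition, Mt1 went from 908 in the DIV1 library to 8684 and 8073 CPM in the DIV3 pair, 15290 and 15169 in the DIV5 pair and 23911 and 33628 in the DIV7 pair. Mt2 went from 1069 to 6544 and 6030, then 10648 and 10138, then 13139 and 19580 CPM. Both lay lowest in the DIV1 library and highest on DIV7, with no overlap between days. From DIV1 to DIV3 the log2 change was 3.21 ± 0.35 (SE; edgeR adjusted p = 0.023; DIV1 n = 1, DIV3 n = 2) for Mt1 and 2.56 ± 0.35 (adjusted p = 0.035) for Mt2. The remaining cells of the same libraries moved in the same direction, from 351 to 4427 and 3745 CPM for Mt1. Leaving out DIV3 replicate 1 ended the call of Mt2, at an edgeR adjusted p of 0.054 (2.0e-08 to 0.054 over 18 alternatives), and Mt1 passed in all 18.

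Pcp4, a small regulator of calmodulin, rose and fell back. Its DIV1 level was 48.6 CPM, followed by 500 and 791 in the DIV3 libraries, 172 and 97.2 on DIV5, then 36.5 and 34.5 on DIV7. The DIV3 libraries stood above all others, and DIV7 lay below DIV1. The change to DIV3 was 3.73 ± 0.50 in log2 (edgeR adjusted p = 0.035). Without the mixed cells the adjusted p was 0.062 (1.4e-11 to 0.062 over the alternatives). Slc38a3, a glutamine transporter of astrocytes, went from 23.6 to 112 and 136 CPM, and the long noncoding RNA Snhg18 from 9.58 to 60.7 and 64.0. The others named by the same criterion were Il11ra1, an interleukin receptor chain (24.6 to 145 and 111 CPM), Nt5dc2 (17.1 to 77.3 and 97.3) and C1qtnf6 (4.79 to 47.9 and 32.2). These 5 passed in 11 to 15 of 18 alternatives, and each lost its call without DIV3 replicate 1, DIV7 replicate 1 or DIV7 replicate 2 (edgeR adjusted p 0.053 to 0.080). Without DIV3 replicate 2 Nt5dc2 was at 0.052, and without the mixed cells all but C1qtnf6 were at 0.062 to 0.068.

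Vgf and Tesc both fell. Vgf stood at 64.3 CPM in the DIV1 library, against 7.95 and 3.62 on DIV3, 5.17 and 5.30 on DIV5, then 2.28 and 8.88 on DIV7. Every later library lay under the DIV1 value, with no trend among them. The change to DIV3 was −3.42 ± 0.51 in log2 (edgeR adjusted p = 0.036). Tesc went from 147 to 29.4 and 22.4, 9.49 and 8.20, and 4.56 and 1.71 CPM, lower on each day than on the one before. Its change to DIV3 was −2.50 ± 0.36 (adjusted p = 0.036). The 2 DIV7 libraries held only 1 and 26 UMIs of Vgf and 2 and 5 of Tesc. Lgals3 fell from 207 to 38.3 and 18.4 CPM (−2.85 ± 0.41, adjusted p = 0.036). Leaving out DIV3 replicate 1 or DIV3 replicate 2 gave adjusted p of 0.069 and 0.059 for Vgf (2.4e-09 to 0.069 over 18 alternatives) and 0.073 and 0.059 for Tesc (4.7e-07 to 0.073). Lgals3 lost its call without DIV7 replicate 1 or DIV7 replicate 2 (0.051 and 0.058), and without the mixed cells it was at 0.146, the highest of its range from 2.5e-10. The other called genes were Ccdc3 and Cpxm2, which rose, and Gja4, C1qa and C1qb, which fell, named here after their values were seen. Gja4, C1qa and C1qb had UMIs in 4, 2 and 2 DIV1 cells, with 64.7% to 73.8% of each gene's UMIs in 1 cell.

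**Figure D4:**
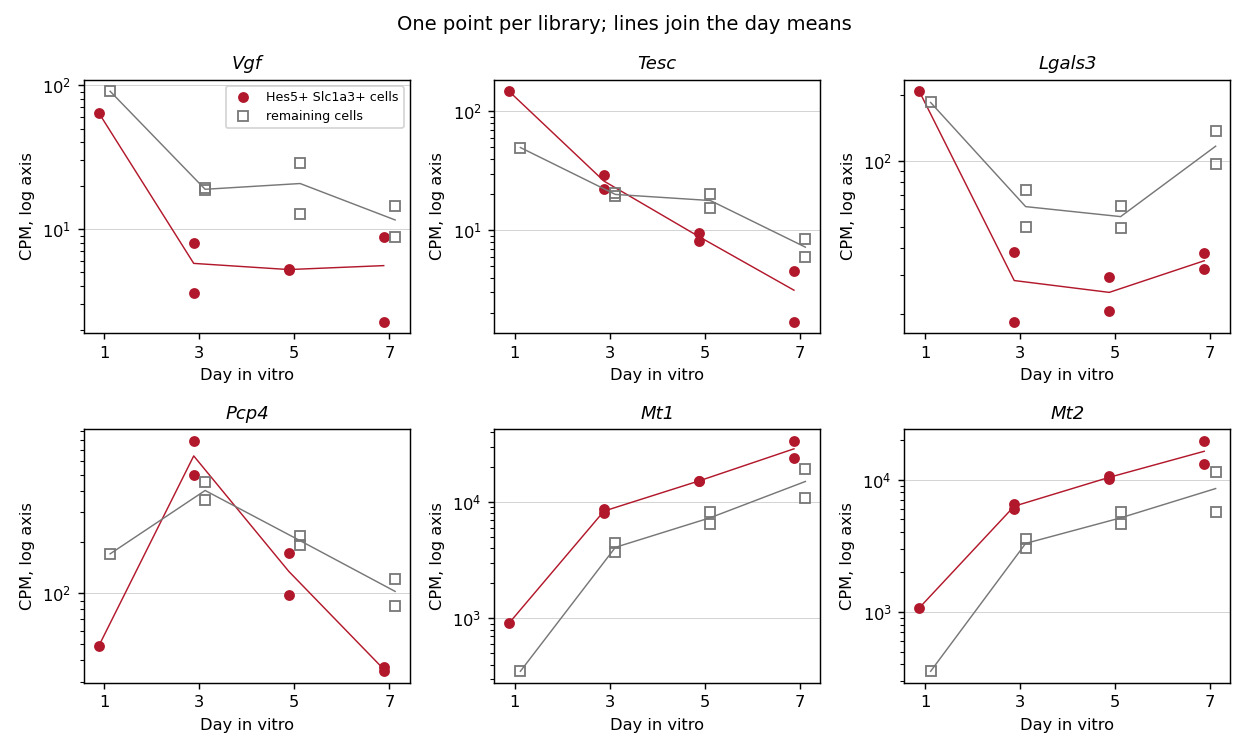
Day in vitro against CPM on a log axis, 1 point per library (DIV1 has 1, the later days 2 each), for Hes5+ Slc1a3+ cells (red) and the remaining cells (grey); lines join the day means. Vgf, Tesc and Lgals3 fall after DIV1 in the red points, Pcp4 peaks at 500 and 791 CPM on DIV3, and Mt1 and Mt2 rise in both populations.

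The change from DIV1 to DIV3 in the Hes5+ Slc1a3+ cells was compared with that in the remaining cells of the same libraries. A test of the difference, with the library as a block, called 5 of the genes named above by the criterion. It also called Gja4, C1qa and C1qb (edgeR adjusted p = 0.0037, 7.2e-16 and 1.4e-17), each with most of its DIV1 UMIs in 1 cell. That test called 2037 of 16863 genes (12.1%), 856 higher (5.08%) and 1181 lower (7.00%) in the Hes5+ Slc1a3+ cells, and with scaling to total counts 1123 and 836, a shift of the median by 0.13. The remaining cells were not the same mix on both days. More than the allowed 1 UMI of Stmn2, a neuronal marker, was held by 2306 of 4096 cells at DIV1. On DIV3 it was 1349 of 5144 and 700 of 2838 cells. In the remaining cells Stmn2 went from 1265 to 452 and 508 CPM, scaled to total counts. Whether this shift bears on the differences was not tested. The rise of Pcp4 was larger by 2.51 ± 0.22 in log2 (edgeR adjusted p = 8.7e-27), the remaining cells going from 170 to 352 and 455 CPM. The falls of Vgf, Tesc and Lgals3 were larger by −1.09 ± 0.35, −1.14 ± 0.29 and −1.25 ± 0.24 (adjusted p = 0.019, 0.0015 and 6.6e-06). In the remaining cells Vgf went from 90.8 to 18.6 and 19.3 CPM and Tesc from 49.6 to 19.5 and 20.6. The rise of Mt2 was smaller by −0.61 ± 0.14 (adjusted p = 3.8e-04), and for Mt1 the difference was −0.29 ± 0.13 (adjusted p = 0.158). Without DIV3 replicate 2 the edgeR adjusted p was 0.451 for Vgf (0.0071 to 0.451 over 13 alternatives) and 0.104 for Tesc (2.1e-04 to 0.333), and the test called 1276 genes, or 1003 without DIV3 replicate 1 and 1656 without the mixed cells. Without the mixed cells Lgals3 was at 0.094 (1.6e-06 to 0.094), and with at most 5% mitochondrial UMIs, which drops DIV5 replicate 1 and DIV7 replicate 1, Mt2 was at 0.343 (2.4e-06 to 0.343), Tesc at 0.333 and Vgf at 0.094.

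No member of the Notch lists passed the test between DIV1 and DIV3, and of all 35 lists 4 had a called member. The astrocyte list had 2 of 28 tested, Mt1 and Mt2, and the matrix list had Lgals3, the secretory list Vgf and the microglia list C1qa and C1qb. Aqp4 had a log2 change of 2.31 ± 0.45 (edgeR adjusted p = 0.092) and Gfap one of 1.24 ± 0.42 (adjusted p = 0.303). In simulated counts the test recovered 66% of genes raised by 2 in log2 and 46% of those lowered by 2. It recovered 6% and 14% of those changed by 1, so smaller changes were mostly not detectable in that setting. There the changed genes had a mean of at least 20 CPM and changed in all 6 later libraries. Each gene was given the average spread of genes at its level. Genes under 20 CPM or with a larger spread were not covered by these rates.

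By DIV7 the Hes5+ Slc1a3+ cells had moved further: 2047 of 12498 genes (16.4%) passed, 1000 higher and 1047 lower (8.38%), and 1575 without the mixed cells. This comparison shares the DIV1 library with the one above. Astrocyte genes were higher, with 14 of 28 up, 0 down and a median log2 change of 2.18 against 0.07 over all genes. Aqp4 went from 89.3 CPM to 526 and 358 on DIV3, 837 and 1493 on DIV5, then 1770 and 2244 on DIV7 (4.49 ± 0.51, edgeR adjusted p = 0.0016). Gfap went from 1077 to 10236 and 18977 CPM at DIV7, and Gja1, the astrocytic gap junction protein connexin 43, from 47.2 to 479 and 853. Mlc1, a membrane protein of astrocyte endfeet that is counted in the radial glia list, went from 113 to 857 and 946 CPM. Of 30 tested radial glia genes 6 rose and 3 fell, and their sum went from 12047 CPM at DIV1 to 15714 and 23018 at DIV7. The astrocyte list's summed level was 10151 CPM in the DIV1 library and 34260 and 31599 on DIV3. It was 48678 and 58279 on DIV5, then 67444 and 111533 on DIV7. It was lowest in the DIV1 library and higher on each later day, with no overlap. The list total of the remaining cells rose too, from 3603 at DIV1 to 36543 and 66638 CPM at DIV7, scaled to total counts. In the Hes5+ Slc1a3+ cells, Mt1 and Mt2 made up 908 and 1069 CPM of the total at DIV1. They made up 23911 and 13139 CPM in DIV7 replicate 1, and 33628 and 19580 CPM in DIV7 replicate 2. With mixed cells left out, 18 members were up and 0 down.

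DNA replication genes went the other way, with 19 of 26 down, 0 up and a median of −2.79. Mcm3, a subunit of the replicative helicase, went from 54.1 to 15.4 and 24.6, 12.1 and 8.44, and 4.56 and 5.47 CPM (−3.35 ± 0.49, edgeR adjusted p = 0.0034). Mcm6 of the same complex went from 56.5 to 0 and 4.44 CPM at DIV7, and Pcna, the sliding clamp, from 89.6 to 22.8 and 19.5. Their sum fell from 1082 CPM at DIV1 to 430 and 622, then 530 and 317, then 228 and 213. Cdk4, the kinase of D-type cyclins, went from 562 to 100 and 104 CPM, Ccnd2 from 1581 to 746 and 769, and the retinoblastoma family genes Rb1 and Rbl2 rose. Cells with mitotic RNA were removed by the selection on every day, so these values describe the cells left. With mixed cells left out, 14 replication genes were down. Without DIV7 replicate 2 the calls of Pcna, Rb1, Rbl2 and Ccnd2 were lost (edgeR adjusted p 0.055 to 0.143), and Ccnd2 was also lost without DIV7 replicate 1, DIV5 replicate 1 or DIV5 replicate 2.

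Of 15 proneural and neuroblast genes 4 fell and 0 rose. Neurog2 went from 21.2 to 4.56 and 1.02 CPM and Insm1, a factor of committed progenitors, from 14.4 to 0 and 0.342. The 34 cells of DIV7 replicate 1 held 399688 UMIs in all. A level of 0 there, for Insm1 as for Mcm6 above and Jag1 below, therefore rests on little depth. Chaperone genes had 4 of 10 members down, with Hsp90ab1 going from 2012 to 509 and 640 CPM, and 1 up, Hspa1a. Of 25 immediate early genes 8 rose and 0 fell, Fosl2 from 36.3 to 217 and 321 CPM and Atf3 from 7.19 to 77.5 and 118. Secretory granule genes rose in 6 and fell in 2 of 13: Cpe, a peptide-processing enzyme, went from 306 to 917 and 1455 CPM, whereas Vgf (−3.13 ± 0.55, edgeR adjusted p = 0.0058) and Scg2 (91.0 to 2.28 and 4.78) fell. Scg2 passed in 9 of 18 alternatives, and lost its call when any single DIV5 or DIV7 library was left out, replicate 1 or 2. Matrix genes had 7 of 24 up and 3 down, with Sdc4 going from 186 to 1097 and 978 CPM and the growth factor midkine (Mdk) from 363 to 84.4 and 72.4. Without DIV7 replicate 2 the calls of Neurog2, Insm1, Cpe, Mdk and Hspa1a were lost (edgeR adjusted p 0.053 to 0.203), and Hspa1a was also lost without DIV7 replicate 1, DIV3 replicate 1 or DIV3 replicate 2.

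**Figure D5:**
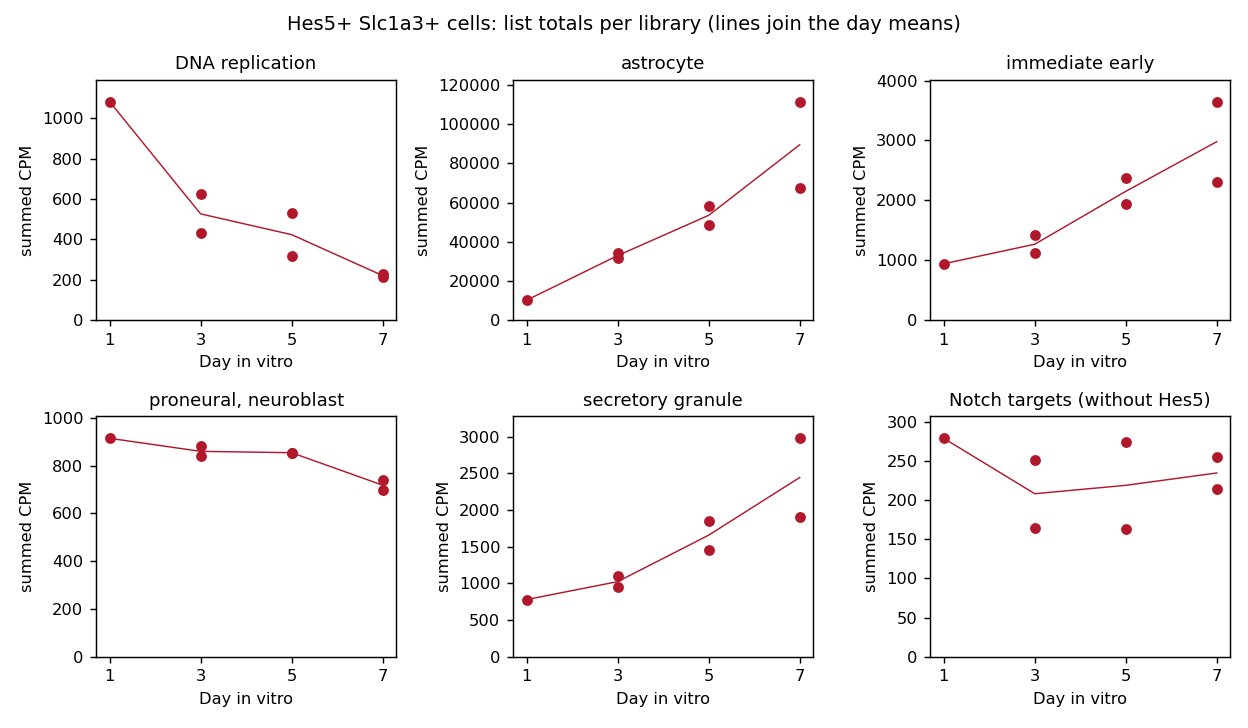
Day in vitro against the summed CPM of 6 gene lists in the Hes5+ Slc1a3+ cells, from 0, 1 point per library, with lines through the day means; Hes5 itself is left out of the Notch targets. The replication total falls from 1082 to 228 and 213 CPM while the astrocyte total rises from 10151 to 67444 and 111533 CPM. Mt1, Mt2 and Gfap are part of the astrocyte total.

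Of the Notch pathway lists, 1 gene rose and 3 fell by DIV7. Of 7 tested ligand genes 1 rose and 2 fell, and of 15 genes that process or modify Notch 1 fell. Over all 12498 genes 16.4% passed, 1000 up and 1047 down. Whether the Notch lists differ from that share was not tested. Notch1 had 153 CPM at DIV1 and 100.3 and 111 at DIV7, Hes1 had 135 and then 98.1 and 110, and Hey1 had 124 and then 112 and 123, with edgeR adjusted p of 0.360, 0.539 and 0.941, and 0 of 4 receptors, 0 of 5 nuclear partners and 0 of 4 targets passed. The summed targets other than Hes5 ranged from 163 to 279 CPM over the 7 libraries. Hes5 itself, which the selection uses, had 386 CPM at DIV1, scaled to total counts. On DIV3 it had 79.4 and 143 CPM, on DIV5 112 and 231, and on DIV7 105 and 178. The limit of 1 UMI was the same in all libraries. The selected cells had a median of 9553.5 UMIs at DIV1 and 8291 to 19729 in the later libraries. A deeper cell can pass with less Hes5 in CPM, and how this bears on the comparisons between days was not tested. A p that misses the threshold does not show that a level was unchanged. Of 7 ligand genes, Dner rose from 14.0 to 105 and 220 CPM (3.57 ± 0.79, adjusted p = 0.020), and Dlk1 and Jag1 fell, from 132 to 31.9 and 23.2 and from 18.1 to 0 and 3.42. Lfng fell from 83.1 to 36.5 and 40.6 CPM and passed in 8 of 18 alternatives. Without DIV7 replicate 1 or DIV7 replicate 2 Dlk1, Jag1 and Lfng lost their calls, Lfng also without DIV5 replicate 1 or DIV5 replicate 2, and Dner lost its call without DIV7 replicate 2; without the mixed cells Dner alone of these passed. Id4 rose from 92.0 to 426 and 596 CPM, while Id3 had 2320 at DIV1 and 1211 and 1850 at DIV7 (adjusted p = 0.281). Ntrk2, the BDNF receptor whose truncated form astrocytes carry, rose from 111 to 1165 and 1382 CPM.

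The 10 largest called rises were genes nearly absent at DIV1. Pi15, a secreted protease inhibitor, had 0 UMIs at DIV1, where 3 UMIs would be 1.03 CPM, and 52.4 and 29.7 CPM at DIV7. Camk2a, a kinase of excitatory synapses, had 0 UMIs and then 70.7 and 21.2 CPM. Its call was lost without DIV3 replicate 1 or DIV3 replicate 2 (edgeR adjusted p 0.063 and 0.065, over a range of 8.8e-11 to 0.065). Ccl4 and Fcrls, which microglia express, had 0 UMIs and then 47.9 and 27.7, and 50.2 and 10.2 CPM. The microglia list as a whole went from 97.5 to 867 and 421 CPM, with 6 of 12 members up, or 1 up without the mixed cells. Of these UMIs 1 of 34 cells held 357 of 364 in DIV7 replicate 1, and 12 of 288 held 1084 of 1196 in DIV7 replicate 2. Pdyn, the dynorphin precursor, had 1.71 CPM (0.555 to 3.99) and then 105 and 323. Ccdc3, a secreted protein, had 2.40 CPM (0.963 to 4.93), then 23.1 and 25.0 on DIV3, 89.7 and 90.4 on DIV5, and 301 and 282 on DIV7, higher on each day than on the one before. Fam107a, a stress-responsive actin regulator found in radial glia and astrocytes, had 1 UMI at DIV1 and 100 and 189 CPM at DIV7. Such rises were also seen in the remaining cells. There Ccdc3 went from 1.06 to 131 and 176 CPM, Pdyn from 1.56 to 77.7 and 134.5, and Fam107a from 0.148 to 42.2 and 90.3.

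Among the 10 largest falls was Tesc itself (−6.04 ± 0.51, edgeR adjusted p = 4.2e-04), with the nucleolar chaperone gene Npm3 (354 to 38.8 and 25.6 CPM), the cell cycle arrest gene Rprm (168 to 18.2 and 13.7), the RNA-binding protein gene Mex3a (67.1 to 6.84 and 5.81) and Pclaf, a partner of the sliding clamp (65.7 to 6.84 and 6.49). Pclaf lost its call without DIV7 replicate 1 or DIV7 replicate 2, as did Cxcl5 among the rises, and Fcrls without DIV7 replicate 1. In the remaining cells Tesc went from 49.6 to 8.49 and 5.93 CPM and Npm3 from 194 to 66.4 and 56.8. Rprm went from 146 to 47.4 and 26.9 CPM there and Mex3a from 156 to 14.0 and 12.5. Pclaf had 91.2 CPM in the remaining cells at DIV1 and 74.3 and 59.4 at DIV7. Whether the changes by DIV7 differed between the 2 populations was not tested. In Hes5+ Slc1a3+ cells of DIV7 replicates 1 and 2, Tesc rested on 2 and 5 UMIs, Mex3a on 3 and 17 and Pclaf on 3 and 19. Leaving out DIV7 replicate 1, with 34 such cells, gave 1179 called genes, and leaving out DIV7 replicate 2 gave 703.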

How the data were processed

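Cells of 7 droplet libraries (10x 3' v2) were analysed. As deposited, each matrix holds raw UMI counts for 31053 genes by barcode. The software version is 3.0.2 per the file headers. Cell Ranger 4.0.0 and the mm9 build are named, per the submitters' processing notes, without a stated role. Whether barcodes were filtered further is not given in the sources used here. Total UMIs were 36226566 in the DIV1 library and 38735834 to 114119537 in the others, and the limits on genes and mitochondrial UMIs removed 2.29% and 4.76% to 19.0% of barcodes. Libraries shared 10 to 34 barcodes in pairs.

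The selection, the gene lists and the tests were chosen with earlier results of these data known. CPM within DIV1 are summed UMIs relative to the population's total. Between days, counts summed per library over at least 20 selected cells were fitted with edgeR 4.0.16 (R 4.3.3, limma 3.58.1): TMM scaling, filterByExpr, 1 mean per day, all 7 libraries in the fit, and a robust quasi-likelihood test (3 residual degrees of freedom) with Benjamini-Hochberg adjusted p under 0.05. The difference between populations added the remaining cells with the library as a block. DESeq2 1.42.0 was an alternative. CPM between days are TMM-scaled. The fit was tested on simulated data: of 11852 unchanged genes 0.0506% were called.

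Named genes are the 15 highest and 10 lowest ratios within DIV1 with at least 20 CPM in either population, the 10 largest rises and falls per day comparison whose mean reached 20 CPM, DIV1 lying outside the later range, Vgf, Tesc, and members of the lists. A few genes that meet these criteria are not reported here. Genes of the selection and predicted, haemoglobin, ribosomal and mitochondrial genes were left out. Scrublet (scanpy 1.11.5) called 6 of 4096 DIV1 cells as doublets (0.146%, expected 3.28%) and was taken not to have worked, so no cell was removed, and removal of the 134 highest scores was an alternative. Cells were thinned to 3000 UMIs without replacement where shares were compared. Promoters are RefSeq sequences of GRCm38.p6, another build than that of the counts, used for sequence only. How the counting divided reads between Mt1 and Mt2, which are related in sequence, is not given in the sources used here. Python 3.11.15, numpy 2.4.6, scipy 1.17.1, pandas 2.3.3 and matplotlib 3.10.9 were used.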

Additional observations from a re-analysis of the deposited data

Results flagged for a closer look

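The change from DIV1 to DIV3 differed between the Hes5+ Slc1a3+ cells and the remaining cells for 5 of the genes named by the criterion in that comparison, by the edgeR test of the difference itself. In log2, change in the Hes5+ Slc1a3+ cells minus change in the remaining cells, it was 2.51 for Pcp4, −0.61 for Mt2, −1.09 for Vgf, −1.25 for Lgals3 and −1.14 for Tesc. Gja4, C1qa and C1qb, named after their values were seen, passed this test too. The mix of remaining cells also differed between the days, and whether this bears on the values was not tested. Groups here have 1 or 2 libraries, too few to single out a library by its distance from the others.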

How the results depend on the processing

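The share of DIV1 cells was 4.57% with at least 2 UMIs of Hes5 and Slc1a3 and 5.19% after thinning. The count of genes past 2-fold within DIV1 was between 895 and 1322. The 16 calls between DIV3 and DIV1 became 415 with no low-count filter, 128 with the libraries of both days only, 47 after thinning, 71 with at least 2 UMIs, 272 with at most 5% mitochondrial UMIs, 10 without mixed cells (added after seeing the data), 123 with DESeq2, and 5 to 72 when 1 library was left out. Only 3 of the 16 were among the 5 left without DIV3 replicate 1, and 7 among the 8 left without DIV7 replicate 1 and among the 8 without DIV7 replicate 2. The 2047 calls between DIV7 and DIV1 became 1172 with at least 2 UMIs, 1074 at 5%, and 703 to 2329 when 1 library was left out. The 2037 differences between populations became 503, 1081 and 1205 after thinning, with at least 2 UMIs and at 5%, and 1003 to 2296 when 1 library was left out. The difference for Snhg18 reversed to 0.75 (thinned) and 0.085 (at least 2 UMIs), and that for Il11ra1 to 0.0055 (total-count scaling) and 0.040 (without DIV3 replicate 1, in a leave-one-out range of −0.28 to 0.040); neither was called in the fit reported. The cause was not tested. The label of the DIV1 library carries no replicate number, so it pairs with no later library by label; with the replicate block and DIV1 set to number 1 or 2, the DIV3 comparison had 236 and 67 calls and the DIV7 comparison 2281 and 2959. Depth limits the rule, since 107 members rest on 1 Hes5 UMI, and 34 cells in DIV7 replicate 1 limit that day. Sums under 20 cells were left out, which removed DIV7 replicate 1 from 3 alternatives.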
